A study of Danio rerio with 4 samples.

Results

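The genes described here are 10 that neurons use to handle their RNA and to build and steer growing axons: elavl3, elavl4, gap43, stmn1a, stmn1b, stmn2a, stmn2b, dpysl3, mapta and maptb. They were taken by name, and all 10 were present among the 29029 genes of the deposited tables. They were followed through 4 RNA-seq libraries made from zebrafish olfactory sensory neurons (OSNs) of Tubingen/TLF embryos at 48 hours post-fertilization (hpf). In the OMP class, 2 libraries came from cells carrying the OMP:RFP transgene, that is, RFP driven by the promoter of olfactory marker protein, which labels ciliated OSNs. In the TRPC2 class, 2 libraries came from cells carrying the TRPC2:Venus transgene, that is, Venus driven by the promoter of the Trpc2 channel, which labels microvillous OSNs. Embryos of both classes carried a transgene, and olfactory epithelia were dissected, dissociated with trypsin and sorted by fluorescence into pools. The OMP pools went through 1 round of linear RNA amplification, and the TRPC2 pools, which held fewer cells, went through 2 rounds. Thus neuron class, cell number and amplification cannot be told apart in any difference between the classes. By the authors' account Venus sample 2 held the fewest cells, which by its number would be TRPC2 library 2.

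Elavl3 and Elavl4, also called HuC and HuD, are RNA-binding proteins of neurons that attach to AU-rich stretches of messenger RNAs and affect their stability, splicing and translation. Gap43 is a membrane-bound phosphoprotein of growth cones, and in rodent olfactory epithelium it marks immature OSNs before they make OMP. Stathmins bind tubulin dimers and favour microtubule disassembly, Dpysl3 is a collapsin response mediator protein that links guidance signals to the cytoskeleton, and mapta and maptb encode zebrafish counterparts of Tau, which binds along axonal microtubules.

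Each pool gave 1 library, and where a class has a pair of values, that of library 1 precedes that of library 2. Levels are the RPM as deposited, that is, reads scaled to a fixed library total. RPM values are not divided by transcript length, so a level was compared only with the level of the same gene in another library. In sorted pools, a lower level can come from fewer cells of a type or from less RNA per cell, and these cannot be told apart. Each library held between 49483362 and 84599818 reads in genes, and a count of 3 reads equalled 0.0269 to 0.0356 RPM. Counting error was therefore small for every one of the genes except mapta. Counting error does not include the variation that comes from pooling few cells or from amplifying their RNA. Reads were found for 25437 and 25542 genes in the OMP libraries, against 17885 and 17991 genes in the TRPC2 libraries. Genes without reads were thus more common in the TRPC2 class. All 10 genes had reads in all 4 libraries, and 9 of them, all but mapta, lay above 30 RPM in each library. Their reads summed to 2371 and 1458 RPM in OMP libraries 1 and 2, and to 2280 and 3268 RPM in TRPC2 libraries 1 and 2.

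The sort labels were checked against the genes that define the classes. For ompb, which encodes OMP, the OMP pools gave 185 and 218 RPM, against 0.24 and 6.95 RPM in the TRPC2 pools. For trpc2b, which encodes the channel, the OMP pools gave 2.80 and 3.82 RPM, against 13.5 and 24.2 RPM in the TRPC2 pools. Both markers followed their labels in every library, although trpc2b was read in the OMP pools as well. Their paralogs did so less cleanly: ompa gave 55.3 and 96.4 RPM for OMP, against 17.3 and 0.44 RPM for TRPC2, and trpc2a gave 1.44 and 1.56 RPM for OMP, against 11.4 and 0.21 RPM for TRPC2, so that trpc2a in TRPC2 library 2 lay below both OMP libraries. Markers of other cells also differed between the pools: 9 red blood cell genes summed to 11461 and 116551 RPM in the OMP pools, against 0.3 and 5.93 RPM in the TRPC2 pools, where 7 and 8 of the 9 had no reads, whereas 12 pigment and neural crest genes summed to 37.3 and 69.7 RPM in the OMP pools, against 1341 and 4671 RPM in the TRPC2 pools. The pigment and neural crest genes were split, and most of their sum came from gch2. Of the 12, 5 had both TRPC2 libraries above both OMP libraries and 5 had the reverse, against 5.61% and 53.3% of all genes. In addition, 13 skin genes summed to 4689 and 7887 RPM in the OMP pools, against 1555 and 905 RPM in the TRPC2 pools. For 12 genes of glia the sums came to 1265 and 1310 RPM in the OMP pools, against 137 and 114 RPM in the TRPC2 pools. Most of the OMP sums came from fabp7a, at 852 and 866 RPM. Of these 12 genes, 7 had both OMP libraries above both TRPC2 libraries, near the 53.3% of all genes. The reverse held for 1, sox10, at 11.3 and 15.4 RPM in the OMP pools, against 17.6 and 48.6 RPM in the TRPC2 pools. Sox10 is also counted among the pigment and neural crest genes. The part of these cells in the values that follow was not tested.

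Of the RNA-binding genes, elavl3, a widely used marker of neurons that have left the cell cycle, had 255 and 216 RPM in OMP libraries 1 and 2, against 324 and 251 RPM in TRPC2 libraries 1 and 2. The ranges of the classes overlapped, with means of 236 ± 28 RPM in the OMP class and 288 ± 51.3 RPM in the TRPC2 class (SD, n = 2 each). Its highest level was 1.5 times its lowest. Of the 948 genes with a mean of at least 100 RPM, only 15.3% had a smaller ratio of highest to lowest library, and the median ratio of those genes was 2.18. Thus, in RPM, elavl3 was among the more evenly read of the highly read genes, a description that carries no test. It depends on the scaling. Under the scaling by trimmed mean of M-values (TMM) used below, both TRPC2 libraries lay above both OMP libraries for elavl3. That was the order of 14% of all genes and 69.4% of these 948.

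Its relative elavl4 was at 466 and 235 RPM in OMP libraries 1 and 2 and at 188 and 269 RPM in TRPC2 libraries 1 and 2. The highest level was in OMP library 1 and the lowest in a TRPC2 library, but the classes overlapped, with means of 350 ± 164 RPM in the OMP class and 229 ± 57.3 RPM in the TRPC2 class (SD, n = 2 each). Elavl4 varied 2.47-fold over the libraries, close to the median of 2.18 for the 948 genes with a mean of at least 100 RPM.

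The growth cone gene gap43 was at 185 and 83.6 RPM in the OMP pools, against 103 and 426 RPM in the TRPC2 pools. TRPC2 library 2 stood above the other 3, while TRPC2 library 1 lay between the OMP libraries. The TRPC2 mean of 265 RPM therefore had an SD of 228 RPM, against 134 ± 71.5 RPM in the OMP class (n = 2 each). The Venus of the TRPC2 line is fused to the membrane anchor of Gap43. Whether transgene transcripts added reads to gap43 was not tested.

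Among the stathmins, stmn1b had 606 and 454 RPM in the OMP pools, against 917 and 694 RPM in the TRPC2 pools. It was the only one of the 10 genes with both TRPC2 libraries above both OMP libraries in RPM, at means of 530 ± 107 RPM in the OMP class and 805 ± 158 RPM in the TRPC2 class (SD, n = 2 each). Over all 29029 genes, 5.61% had this order, and 53.3% had both OMP libraries above both TRPC2 libraries. Among the 948 genes with a mean of at least 100 RPM, those shares were 32.5% and 25.8%, so 1 gene in that order is no more than the level of these genes brings with it.

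Its paralog stmn1a was at 114 and 107 RPM in the OMP pools, against 175 and 30.6 RPM in the TRPC2 pools. Here the OMP libraries were alike and both lay between the TRPC2 libraries, which differed 5.73-fold. In mammals, STMN1 is made by dividing progenitors as well as by neurons. Values for cycling cells are given with the comparison of libraries below.

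The stmn2 genes encode counterparts of SCG10, a stathmin enriched in growth cones. The level of stmn2a was 158 and 76.8 RPM in the OMP pools, against 114 and 206 RPM in the TRPC2 pools, with the classes interleaved. That of stmn2b was 136 and 53.2 RPM in the OMP pools, against 106 and 871 RPM in the TRPC2 pools. TRPC2 library 2 held more stmn2b than the other 3 libraries together, so that the TRPC2 mean was 489 ± 541 RPM, against 94.7 ± 58.6 RPM in the OMP class (SD, n = 2 each). Across the 4 libraries stmn2b varied 16.4-fold, and 93.1% of the 948 genes with a mean of at least 100 RPM varied less.

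Dpysl3 had 262 and 112 RPM in the OMP pools, against 173 and 327 RPM in the TRPC2 pools. In each class 1 library was high and 1 low, and the classes overlapped, at means of 187 ± 107 RPM in the OMP class and 250 ± 109 RPM in the TRPC2 class (SD, n = 2 each).

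Of the Tau genes, maptb was read often and mapta rarely. The level of maptb was 185 and 119 RPM in the OMP pools, against 179 and 193 RPM in the TRPC2 pools. Its spread was 1.62-fold, and 23% of the 948 genes with a mean of at least 100 RPM stayed under that. The level of mapta was 3.55 and 2.29 RPM in the OMP pools (384 and 255 reads), against 0.0905 and 1.15 RPM in the TRPC2 pools (8 and 97 reads). Mapta was the only one of the genes with both OMP libraries above both TRPC2 libraries, the order held by 53.3% of all genes. Exact (Clopper-Pearson) 95% intervals, which cover counting error only, were 3.21 to 3.93 and 2.02 to 2.59 RPM in OMP libraries 1 and 2, against 0.0391 to 0.178 and 0.933 to 1.40 RPM in TRPC2 libraries 1 and 2. None of these intervals overlapped. As a ratio the TRPC2 libraries differed more, at 12.8-fold against 1.55-fold for the OMP libraries, and that ratio rests on the 8 reads of TRPC2 library 1. In RPM the SD was 0.75 in the TRPC2 class and 0.891 in the OMP class. In the RefSeq annotation mapta overlaps fra10ac1, which was at 5.98 and 6.58 RPM in the OMP pools, against 0.01 and 1.87 RPM in the TRPC2 pools. Only the spans of the genes were compared, not their exons, and the strand setting of the counting is not given in the sources used here. Whether reads of fra10ac1 were counted to mapta, or the reverse, is therefore not known. The same holds for stmn1b with paqr7b, at most 8.31 RPM in any library, and for dpysl3 with jakmip2, at most 52.2 RPM. Reads shared by near-identical stretches of paralogs, such as the stathmin pairs, may also have been split by the counting.

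**Figure D1:**
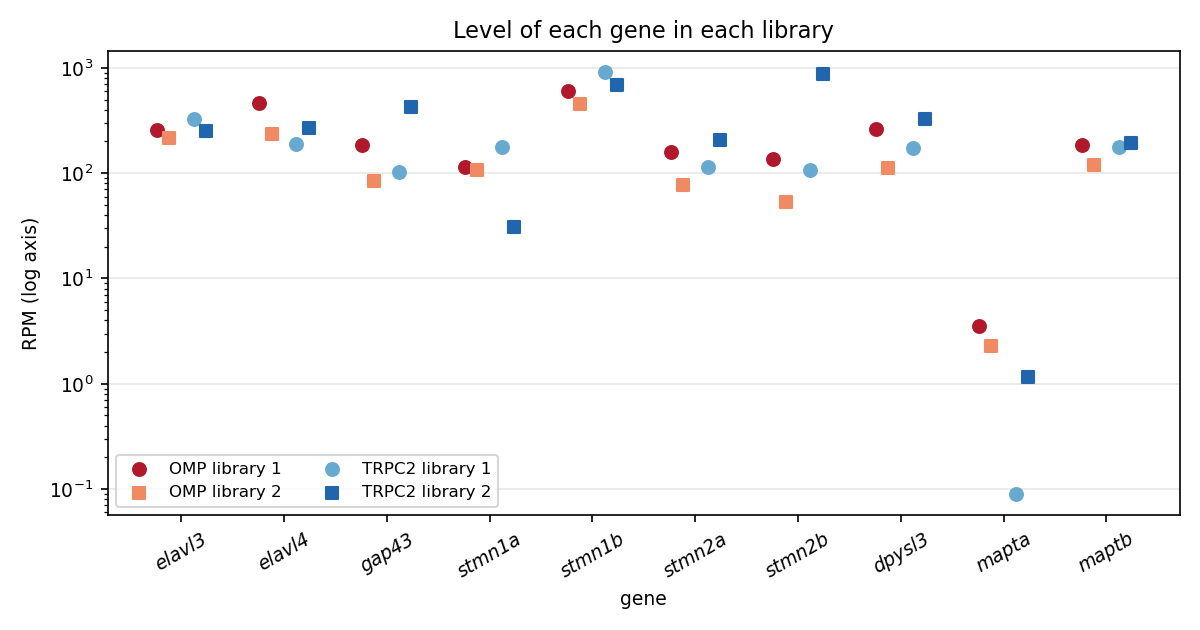
Levels of the 10 genes in RPM on a log axis, with 1 point per library, OMP libraries 1 and 2 in red and orange and TRPC2 libraries 1 and 2 in light and dark blue. Points for elavl3, stmn1b and maptb lie close together, while stmn2b and gap43 are highest in TRPC2 library 2 and stmn1a is lowest there, at 30.6 RPM.

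The comparison of the classes asked whether ciliated and microvillous OSNs of the same stage differ in these genes. By edgeR's quasi-likelihood test with Benjamini-Hochberg adjustment, none of the 10 genes passed an adjusted p of 0.05, and none of the 21026 genes tested did (0%). At an unadjusted p under 0.05, 4 of the 10 genes were past the threshold, all higher in the TRPC2 class: elavl3, stmn1b, stmn2b and maptb. Over all genes tested, 4907 (23.3%) were past it higher in the OMP class and 1510 (7.18%) higher in the TRPC2 class. Genes read as highly as these leaned the other way, since among the 948 with a mean of at least 100 RPM 42.4% were past it higher in the TRPC2 class and 5.38% higher in the OMP class. All 4 genes belong to those 948, which hold 9 of the 10 genes, so the count is near the background for genes of this level.

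The log2 fold changes, OMP over TRPC2, carry wide errors with 2 libraries a class. Stmn1b was at −1.38 (SE 0.37; unadjusted p = 0.0156, adjusted p = 0.0793 by edgeR's quasi-likelihood test). By the same edgeR test elavl3 was at −1.07 (SE 0.33, adjusted p = 0.102) and maptb at −1.08 (SE 0.36, adjusted p = 0.125). Stmn2b had the most negative value, −3.20, with an SE of 1.17 and a 95% interval of −6.27 to −0.13 (edgeR adjusted p = 0.151). The values of gap43, stmn2a and dpysl3 were −1.80, −1.25 and −1.22, with edgeR adjusted p between 0.206 and 0.255. Intervals of elavl4 (−1.43 to 1.06), stmn1a (−2.78 to 1.48) and mapta (−2.86 to 5.67) reached well to both sides of 0. The interval of elavl4 leaves room for a change of more than 2-fold in either direction, so a like level in both classes was not shown.

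These fold changes are relative to the scaling by trimmed mean of M-values (TMM), under which the median of all genes was 0.49. Relative to that median the 10 genes had a median of −1.64, but the 948 genes of at least 100 RPM also lay low, at a median log2 fold change of −0.96, against −1.15 for the 10 genes. With reads scaled by library totals, edgeR put elavl4 at 0.56, against −0.18 with TMM, so elavl4 has no direction that holds over scalings. Under library totals gap43 was at −0.95, stmn2a at −0.49, dpysl3 at −0.44, elavl3 at −0.43, maptb at −0.39, stmn1b at −0.74, stmn2b at −2.30 and stmn1a at −0.14, and mapta at 2.28. Stmn1a kept its sign over the scalings tried with edgeR, but limma on log2(RPM + 0.5), a different test as well as a different scaling, put it at 0.59. With TMM scaling 6 of the genes, and with DESeq2's size factors 7, had both TRPC2 libraries above both OMP libraries, the order of 14% and 15.4% of all genes under those scalings. Among the 948 genes with a mean of at least 100 RPM those shares were 69.4% and 73.4%, so these counts too are near what genes of this level gave.

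Single libraries decided much of the comparison. Without TRPC2 library 1, edgeR called 7 of the genes higher in the TRPC2 class at an adjusted p of 0.05 (elavl3, gap43, stmn1b, stmn2a, stmn2b, dpysl3 and maptb), as it did 16.4% of all genes and 62.4% of those with a mean of at least 100 RPM. Stmn1a was then called higher in the OMP class, at 0.89 (edgeR adjusted p = 0.0367), as were 32.6% of all genes and 8.97% of the highly read ones. Without TRPC2 library 2, edgeR called 4 genes higher in the TRPC2 class (elavl3, stmn1a, stmn1b and maptb), as it did 15.8% of all genes and 50.2% of the highly read ones. Stmn1a then stood at −1.41 (edgeR adjusted p = 0.00626), so its call turned round with the TRPC2 library that was kept. In the same fit mapta was called higher in the OMP class, at 4.25 (edgeR adjusted p = 0.00875), as were 34.9% of all genes (7.17% of the highly read ones, to which mapta does not belong), and stmn2b was not called, at −0.92 (edgeR adjusted p = 0.177). Over all 4 ways of leaving out 1 library, the log2 fold change ran from −2.63 to −0.37 for gap43, from −1.83 to −0.71 for stmn2a and from −1.94 to −0.64 for dpysl3. In these fits the lone library of a class was assumed to vary like those of the other class. DESeq2, on all 4 libraries, called elavl3, stmn1b and stmn2b higher in the TRPC2 class, as it did 5.85% of all genes and 29.5% of the highly read ones, and it called 0 of these 10 higher in the OMP class, where it called 13.2% of all genes and 4.54% of the highly read ones.

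**Figure D2:**
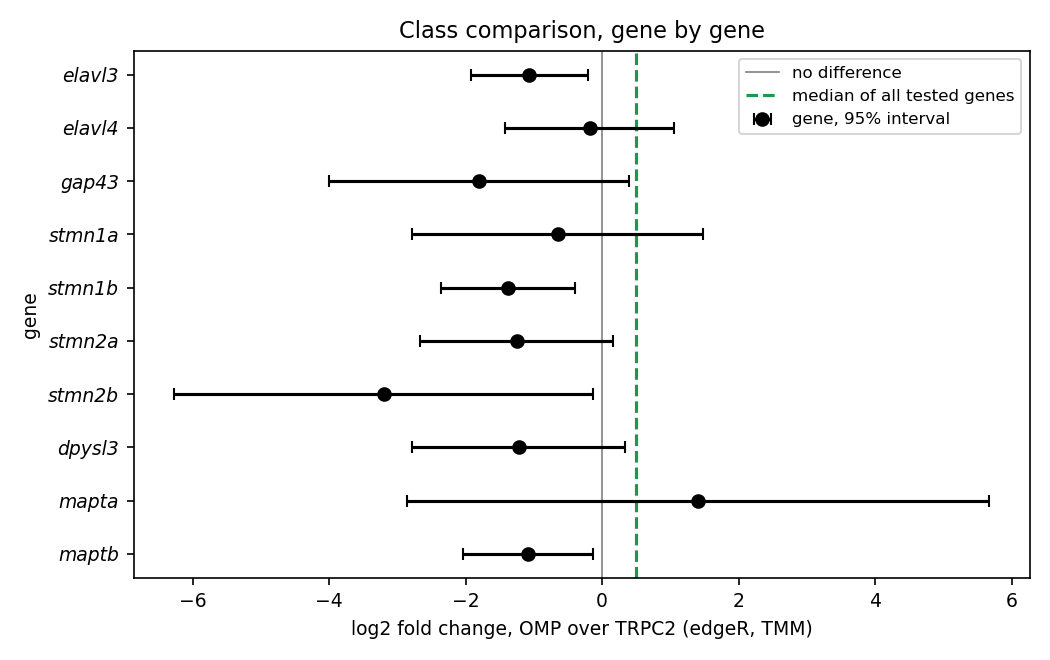
Log2 fold change of each gene, OMP over TRPC2, by edgeR with TMM scaling, with bars for the 95% interval (n = 2 libraries a class), a grey line at no difference and a dashed line at the median of all genes tested, 0.49. Of the 10 points, 9 lie below 0 and mapta lies above it, and intervals are narrow for elavl3, stmn1b and maptb and wide for stmn2b and mapta.

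Ratios between genes of the same library do not depend on how libraries are scaled, as long as the levels are far above any value added to them. Here 12 such ratios were computed, on log2(RPM + 0.5). For mapta, at 0.09 RPM in TRPC2 library 1, the added 0.5 RPM sets much of the ratio. Only the change of a ratio between libraries has a meaning here, since reads were not divided by length. With 2 libraries against 2, an exact two-sided permutation test cannot give a p below 0.333. The classes did not overlap for 5 of the 12 ratios, each with an exact permutation p of 0.333 (0.8 after Benjamini-Hochberg adjustment over the 12).

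The log2 ratio of elavl4 to elavl3 was 0.87 and 0.12 in the OMP pools, against −0.78 and 0.10 in the TRPC2 pools. OMP library 2 and TRPC2 library 2 were nearly equal, so the order of the classes rests on a very small gap. The ratio of stmn1b to elavl3 was the steadiest, at 1.25 and 1.07 in the OMP pools, against 1.50 and 1.46 in the TRPC2 pools, a difference of −0.32. That of stmn2b to stmn2a was −0.21 and −0.53 in the OMP pools, against −0.10 and 2.08 in the TRPC2 pools. This ratio was similar in 3 libraries, and TRPC2 library 2 stood apart from them. The ratios that involve mapta, to elavl3 and under maptb, also separated the classes, and rest on the low reads of mapta in the TRPC2 pools. In TRPC2 library 1 the added 0.5 RPM was larger than the level of mapta, so the size of these ratios depends on it. For maptb to elavl3 the values were −0.47 and −0.86 in the OMP pools, against −0.85 and −0.38 in the TRPC2 pools, a difference of −0.05 with the classes interleaved. The ratio of stmn1b to stmn1a was 2.40 and 2.08 in the OMP pools, against 2.38 and 4.48 in the TRPC2 pools, where library 2 again stood alone.

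**Figure D3:**
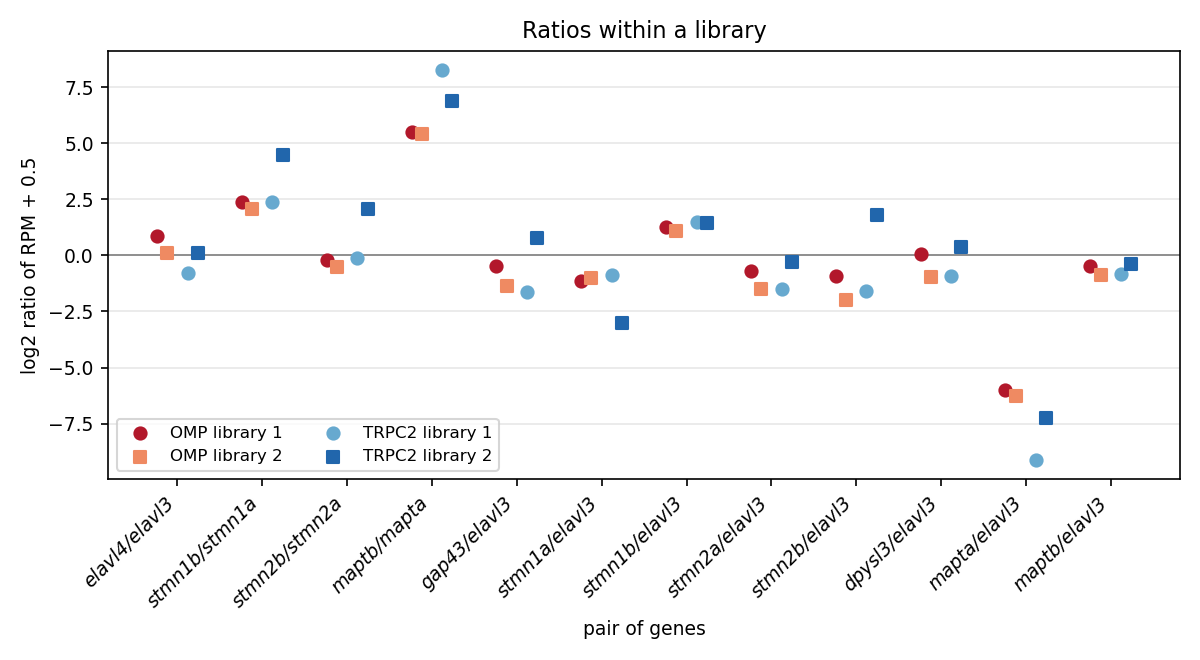
Log2 ratio of the RPM + 0.5 of a pair of genes within each library, with 1 point per library, OMP libraries 1 and 2 in red and orange and TRPC2 libraries 1 and 2 in light and dark blue. Ratios of stmn1b and maptb to elavl3 lie close together in all 4 libraries, while stmn2b over stmn2a and stmn1b over stmn1a are highest in TRPC2 library 2, at 2.08 and 4.48.

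The libraries of a class differed from each other in an order that several of the genes shared. OMP library 1 was above OMP library 2 for all 9 genes with a mean of at least 10 RPM, and TRPC2 library 2 was above TRPC2 library 1 for 6 of those 9. Over the 7485 genes with such a mean, 53.2% were higher in OMP library 1 and 47.1% were higher in TRPC2 library 2. These are comparisons of 1 library with 1 other, with no replicates and no test.

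The OMP libraries were otherwise alike, with a median absolute log2 difference of 0.24 over the 7485 genes, with 1.7% of them more than 2-fold higher and 2.39% more than 2-fold lower in library 1. Of the 9 genes, 4 were: gap43 at 2.21-fold, stmn2a at 2.05-fold, stmn2b at 2.56-fold and dpysl3 at 2.35-fold, with elavl4 just under, at 1.99-fold. By contrast stmn1a and elavl3 were at 1.07-fold and 1.18-fold. Among these 9 genes, the OMP libraries thus differed most in gap43, the stmn2 paralogs and dpysl3, with elavl4 next.

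The TRPC2 libraries differed more, with a median absolute log2 difference of 0.85 and 19.6% of genes more than 2-fold higher in library 2. There gap43 was 4.12-fold and stmn2b 8.19-fold higher in library 2, dpysl3 1.89-fold, stmn2a 1.80-fold and elavl4 1.43-fold. Stmn1a ran the other way, at 0.174 of its level in library 1, as 23.3% of genes did by more than 2-fold. Elavl3, stmn1b and maptb were at 0.776, 0.757 and 1.08 times their level in library 1. More than 2-fold higher both in OMP library 1 and in TRPC2 library 2 were 47 genes (0.628%), gap43 and stmn2b among them. The labels do not link those libraries, and they are the ones in which these genes were high. That share is therefore a description and carries no test.

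**Figure D4:**
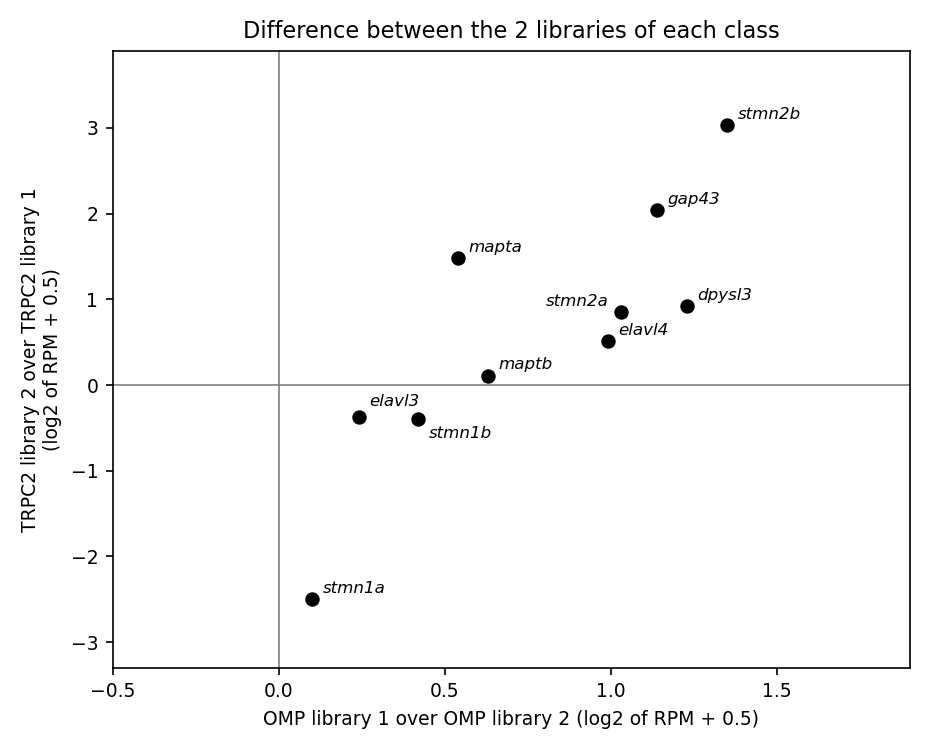
Difference between the libraries of a class for each of the 10 genes, as log2 of RPM + 0.5, OMP library 1 over library 2 on the horizontal axis and TRPC2 library 2 over library 1 on the vertical axis. Stmn2b (1.35 and 3.03) and gap43 (1.14 and 2.04) lie at the upper right, elavl3 and stmn1b near 0, and stmn1a lowest, at −2.50 on the vertical axis.

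Genes of other cells also differed between the libraries of a class. The 17 genes of neural progenitors and cycling cells summed to 1778 and 1449 RPM in the OMP pools, against 1660 and 590 RPM in the TRPC2 pools, and of the 15 with a mean of at least 10 RPM, 14 were higher in OMP library 1 than in library 2 and 0 were higher in TRPC2 library 2 than in library 1, at median log2 differences of 0.31 and −2.26. This list thus followed the order of gap43 and stmn2b between the OMP libraries and ran against it between the TRPC2 libraries. Sox3, a progenitor transcription factor, was at 144 and 121 RPM in the OMP pools, against 71.2 and 13.0 RPM in the TRPC2 pools. TRPC2 library 2, low in stmn1a, was therefore low in the sum of the progenitor and cycling genes as well. Neurod1 went the other way between the classes, at 88.1 and 76.8 RPM in the OMP pools, against 265 and 157 RPM in the TRPC2 pools. Of the 17 genes, 10 had both OMP libraries above both TRPC2 libraries and 1 had the reverse, against 53.3% and 5.61% of all genes.

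The 15 genes of brain neurons summed to 367 and 227 RPM in the OMP pools, against 107 and 215 RPM in the TRPC2 pools, with 0 of the genes at 0 in either OMP library and 2 and 1 at 0 in the TRPC2 pools. Of these, neurod6b, a transcription factor of forebrain neurons, was at 19.9 and 8.34 RPM in the OMP pools, against 11.6 and 131 RPM in the TRPC2 pools, the same order as gap43 and stmn2b. Neurod6b made up most of the sum in TRPC2 library 2. By contrast, otpa was at 32.9 and 16.9 RPM in the OMP pools, against 28.2 and 0.01 RPM in the TRPC2 pools. Of the 15 genes, 8 had both OMP libraries above both TRPC2 libraries and 0 had the reverse. Those orders were held by 53.3% and 5.61% of all genes. Gad2, an enzyme that makes the transmitter GABA, was at 18.6 and 3.49 RPM in the OMP pools, against 0.09 and 1.48 RPM in the TRPC2 pools. All 8 brain neuron genes with a mean of at least 10 RPM were higher in OMP library 1 than in library 2, and 4 of the 8 were higher in TRPC2 library 2 than in library 1. The red blood cell genes took 116551 RPM in OMP library 2, the library in which the growth cone genes were lower. The sum of the pigment and neural crest genes was highest in TRPC2 library 2, as gap43 and stmn2b were. Most of their sum came from gch2, whose enzyme starts the making of pteridine pigments, with 16.8 and 28.2 RPM in the OMP pools, against 1279 and 4521 RPM in the TRPC2 pools. All 4 genes of that list with a mean of at least 10 RPM were higher in TRPC2 library 2 than in library 1, and 1 of the 4 was higher in OMP library 1 than in library 2. Of its 12 genes, 0 were at 0 in either OMP library, and 4 and 2 were at 0 in TRPC2 libraries 1 and 2. With the red blood cell genes left out of the edgeR fit, the log2 fold changes of elavl3, gap43 and stmn2b stayed at −1.07, −1.80 and −3.20. That fit bears on scaling, not on RNA that blood cells may have added. The part of brain neurons, progenitors, pigment cells or blood cells in the levels of the 10 genes was not tested.

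Other genes of the same families were read alongside, in lists chosen by function. None of their members passed an adjusted p of 0.05 by edgeR's quasi-likelihood test. Counts at an unadjusted p under 0.05 stand against 23.3% of all genes higher in the OMP class and 7.18% higher in the TRPC2 class, and against 5.38% and 42.4% of the genes with a mean of at least 100 RPM, so they are given for the genes of that level as well. Of the other 3 Elavl genes, elavl1 and hug (elavl1b) are made in many tissues, and neither they nor elavl2 passed an unadjusted p of 0.05. The level of elavl1 was 169 and 158 RPM in the OMP pools, against 93.9 and 169 RPM in the TRPC2 pools. Elavl2 was hardly read, at 0.91 and 0.39 RPM in the OMP pools and 0.16 and 2.10 RPM in the TRPC2 pools. Elavl2 had its highest level in TRPC2 library 2, unlike elavl3.

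Of 23 neuronal RNA-binding and splicing genes, 3 were past an unadjusted p of 0.05 higher in the OMP class and 6 higher in the TRPC2 class, with a median log2 fold change of −0.74. Of the 6 with a mean of at least 100 RPM, the counts were 0 and 3, which is near the shares for genes of that level. The genes past the threshold higher in the OMP class were rbfox1l, khdrbs3 and celf5b, each at 2.21 RPM or less in every library. Celf3a, a splicing regulator of the nervous system, was at 120 and 110 RPM in the OMP pools, against 188 and 184 RPM in the TRPC2 pools (log2 fold change −1.48, edgeR adjusted p = 0.0721). Rbfox2, another splicing regulator, was at 92.3 and 65.9 RPM in the OMP pools, against 129 and 159 RPM in the TRPC2 pools. For both genes the classes did not overlap in RPM, with the TRPC2 libraries higher. Of the 23 genes, 10 had both OMP libraries above both TRPC2 libraries and 4 had the reverse. Those orders were held by 53.3% and 5.61% of all genes. All 16 genes of the list with a mean of at least 10 RPM were higher in OMP library 1 than in library 2, and 11 of the 16 were higher in TRPC2 library 2 than in library 1.

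Among the other stathmins, stmn4, which like stmn2 is made in neurons, was at 54.1 and 35.1 RPM in the OMP pools, against 55.9 and 68.0 RPM in the TRPC2 pools (log2 fold change −1.27, edgeR adjusted p = 0.102). Both TRPC2 libraries were above both OMP libraries for stmn4, without the large excess that stmn2b had in library 2. That order rests on a small gap between OMP library 1 and TRPC2 library 1. Stmn4l was at 99.1 and 85.8 RPM in the OMP pools, against 148 and 83.6 RPM in the TRPC2 pools. Its classes overlapped (log2 fold change −1.10, edgeR adjusted p = 0.138). Stmn3 was read at 2.99 and 1.09 RPM in the OMP pools, against no reads and 0.42 RPM in the TRPC2 pools. By counting error alone, a count of 0 in TRPC2 library 1 allows up to 0.0339 RPM. That bound does not cover transcripts lost from a small pool or in amplification.

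All 5 other Crmp/Dpysl genes were higher in OMP library 1 than in library 2 and higher in TRPC2 library 2 than in library 1, the order of dpysl3. Of all 7485 genes with a mean of at least 10 RPM, 1895 had that order. Crmp1, a collapsin response mediator protein like Dpysl3, was at 26.5 and 10.2 RPM in the OMP pools, against 10.9 and 40.0 RPM in the TRPC2 pools. Dpysl2b, encoding a Crmp2 that binds tubulin dimers, was at 25.6 and 18.2 RPM in the OMP pools, against 1.36 and 3.78 RPM in the TRPC2 pools (log2 fold change 2.28, edgeR adjusted p = 0.146). For 3 of these 5 genes the TRPC2 libraries both lay below the OMP libraries, as for 53.3% of all genes, and the classes overlapped for crmp1 as for dpysl3.

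Of 13 other microtubule-associated and doublecortin genes, 2 were past an unadjusted p of 0.05 higher in the OMP class and 1 higher in the TRPC2 class, near or below the shares of all genes, and neither of the 2 with a mean of at least 100 RPM was. Tppp3, a protein that promotes microtubule polymerization, was at 30.4 and 32.5 RPM in the OMP pools and had no reads in the TRPC2 pools. By counting error alone, a count of 0 there allows up to 0.0339 and 0.0356 RPM in libraries 1 and 2. Transcripts lost from small pools or in amplification are not covered by those bounds. Map2, a microtubule-associated protein of dendrites, was at 46.0 and 32.3 RPM in the OMP pools, against 46.1 and 93.1 RPM in the TRPC2 pools. Map2 had its highest level in the same library as maptb and stmn2b.

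The next list holds genes related to gap43 in how they bind the plasma membrane. Basp1, a growth cone protein often grouped with Gap43, was at 77.8 and 41.9 RPM in the OMP pools, against 110 and 335 RPM in the TRPC2 pools (log2 fold change −2.71, SE 0.72, edgeR adjusted p = 0.0767). Marcksl1b was at 849 and 572 RPM in the OMP pools, against 1185 and 2125 RPM in the TRPC2 pools. Basp1 shared with gap43 the high TRPC2 library 2 and the higher OMP library 1, but unlike gap43 its TRPC2 libraries both lay above the OMP libraries. Of the 5 genes of this list, 0 were past an unadjusted p of 0.05 higher in the OMP class and 3 higher in the TRPC2 class, and these 3 were among its 4 genes with a mean of at least 100 RPM. Over all genes of that level the share higher in the TRPC2 class was 42.4%.

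Of 17 genes listed as actin regulators of growth cones, 3 were past an unadjusted p of 0.05 higher in the OMP class and 6 higher in the TRPC2 class, and of the 6 with a mean of at least 100 RPM, 2 and 3 were. Pfn2, a profilin of neurons, was at 283 and 253 RPM in the OMP pools, against 546 and 957 RPM in the TRPC2 pools. Cfl1l, a cofilin-like gene, was at 303 and 330 RPM in the OMP pools, against 58.9 and 34.6 RPM in the TRPC2 pools. The sum of the skin genes was also higher in the OMP pools. Whether the reads of cfl1l came from neurons or from skin cells was not tested. For the 13 tubulin genes the counts were 2 and 4, with 0 and 4 among the 9 of at least 100 RPM, close to the 42.4% of all genes of that level, and tubb5, a beta-tubulin of neurons, was at 759 and 516 RPM in the OMP pools, against 986 and 3073 RPM in the TRPC2 pools. Tubulins summed to 5982 and 5758 RPM in the OMP pools, against 5440 and 15187 RPM in the TRPC2 pools, so TRPC2 library 2 was high in tubulin transcripts as well as in stmn2b.

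The pan-neuronal and mature neuron genes had 2 of 18 tested past an unadjusted p of 0.05 higher in the OMP class and 7 higher in the TRPC2 class, with a median log2 fold change of −1.13, close to the −1.15 of the 10 genes. Of the 6 with a mean of at least 100 RPM, 0 were past it higher in the OMP class and 5 higher in the TRPC2 class. Tubb5, also counted among the tubulins, is among these 5. The shares were 23.3% and 7.18% over all genes, and 5.38% and 42.4% over those of at least 100 RPM. Sncb, a synuclein of nerve terminals, was at 408 and 284 RPM in the OMP pools, against 834 and 2159 RPM in the TRPC2 pools. Gng3, a G protein gamma subunit of neurons, was at 271 and 198 RPM in the OMP pools, against 433 and 534 RPM in the TRPC2 pools. Sncb and gng3 were higher in OMP library 1 and in TRPC2 library 2, as gap43 was. So were 9 of the 14 genes of this list with a mean of at least 10 RPM, against 1895 of all 7485 genes with such a mean. Syt1a, a calcium sensor of synaptic vesicles, was at 156 and 114 RPM in the OMP pools, against 283 and 196 RPM in the TRPC2 pools, and did not follow that order in the TRPC2 class. Neflb, hardly read, went the other way between the classes. It was at 0.56 and 0.52 RPM in the OMP pools, against 0.01 RPM and no reads in the TRPC2 pools. Of the 19 genes of this list, 4 had both OMP libraries above both TRPC2 libraries and 6 had the reverse. Those orders were held by 53.3% and 5.61% of all genes.

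Genes whose pattern over the 4 libraries was most like that of elavl3 and of gap43 were sought among 7476 genes with a mean of at least 10 RPM, by the root-mean-square (RMS) difference of log2(RPM + 0.5) after centring each gene on its own mean. For elavl3 the nearest was hnrnph1l, at 125 and 107 RPM in the OMP pools, against 164 and 128 RPM in the TRPC2 pools, with an RMS difference of 0.024. Ocrl, hnrnpaba, caprin1a and hif1ab followed, at 0.039 to 0.047, and the median over all genes searched was 0.65. For gap43 the nearest was cspg5a, at 42.9 and 19.9 RPM in the OMP pools, against 24.5 and 86.9 RPM in the TRPC2 pools, with an RMS difference of 0.099. Prrc2c, hpca, ptprk and huwe1 followed, at 0.125 to 0.193, against a median of 1.17. Over only 4 libraries, such likeness is a description.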

How the data were processed

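The authors aligned reads with STAR to the GRCz10 build and counted them per gene. Which STAR version, gene annotation and strandedness they used is not given in the sources used here. They deposited raw read counts and RPM per gene for each library, and reads in genes were 56.0% to 75.9% of the total behind the deposited RPM. Here counts were tested with edgeR 4.0.16 (quasi-likelihood, TMM scaling, filterByExpr, R 4.3.3), with Benjamini-Hochberg adjustment over 21026 genes. DESeq2 1.42.0, limma 3.58.1 on log2(RPM + 0.5), other scalings, a minimum of 100 counts, no filter and a replicate block were alternatives. So were thinned counts, a fit without the red blood cell genes and leaving out each library. Data for the class comparison were simulated in 3 runs, each with 200 of 21026 genes changed. In them edgeR recovered 0% of genes changed 2-fold, 1.33% of 4-fold, 32.7% of 16-fold and 58% of 64-fold changes. These rates hold for that share of changed genes, and the share in the real libraries is not known. The labels call the libraries biological replicates, and p-values measure only the spread between them. Counting intervals cover counting error only.

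The members and the lists were chosen with earlier results of these data known. Named genes are the 10 members, up to 4 genes of each related list with the smallest unadjusted p, the class markers and the 5 genes nearest in pattern to elavl3 and gap43. List symbols were matched by symbol or RefSeq synonym, and unmatched ones were not analysed here. Overlapping genes were looked up by name in a RefSeq annotation of another build.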

Additional observations from a re-analysis of the deposited data

How the results depend on the processing

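Some of the counts and directions depended on the fit. Against 0 genes called by edgeR in either direction, DESeq2 called 2782 higher in the OMP class and 1230 higher in the TRPC2 class, limma called 4945 and 165 with a pseudocount of 0.5 RPM and 5350 and 175 with 0.1 RPM, and leaving out 1 library at a time gave edgeR 60 to 8023 and 50 to 3773. Of the 10 genes, DESeq2 called 3 higher in TRPC2 (elavl3, stmn1b and stmn2b), and leaving out 1 library gave 0 to 7 higher in TRPC2 and 0 to 1 higher in OMP. At an unadjusted p under 0.05, the 4 genes higher in TRPC2 became 0 with library totals and 0 with limma at either pseudocount. Of the 948 genes with a mean of at least 100 RPM, 402 were past that threshold higher in TRPC2 by edgeR with TMM. With library totals 137 of them were, and by limma 127 with a pseudocount of 0.5 RPM and 137 with 0.1 RPM. The count of the 10 genes thus fell along with that of genes of their level. Genes with both TRPC2 libraries above both OMP libraries numbered 1 in RPM, 6 with TMM and 7 with DESeq2's size factors. Elavl4, at −0.18, was at 0.56 with library totals, 0.55 by limma at either pseudocount and −0.73 to 0.21 without 1 library. Stmn1a, at −0.65, was at 0.59 by limma at either pseudocount and −1.41 to 0.89 without 1 library. Without 1 library the difference of log2 ratios to elavl3 ran over 0 for gap43 (−1.67 to 0.73), stmn1a (−0.20 to 1.93), stmn2a (−0.80 to 0.41), stmn2b (−3.25 to 0.14), dpysl3 (−0.83 to 0.45) and maptb (−0.28 to 0.19), and list medians did for other Elavl genes (−1.01 to 0.06), neuronal RNA-binding genes (−0.79 to 0.04), other microtubule-associated genes (−0.45 to 0.49), other Crmp/Dpysl genes (−0.41 to 0.02), progenitor and cycling genes (−0.38 to 1.15) and pigment genes (−2.49 to 1.12). Causes were not tested. A replicate block called 329 genes higher in OMP and 268 higher in TRPC2. With it, 7 of the 10 genes were under an unadjusted p of 0.05 higher in TRPC2. So were 1228 of all 21026 genes and 370 of the 948 with a mean of at least 100 RPM. Libraries of the same number did not deviate together (r = −0.000374 over 21026 genes). With 2 libraries a class this cannot show whether the numbers pair them, and the labels do not say so. Reads of mapta limit what can be said of it, and 2 libraries a class limit the rest.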
